A study of Homo sapiens with 30 samples.

Results

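PTPN13, TOP1 and LRRC74A are 3 genes whose surroundings held more open chromatin in anterior than in posterior neural ectoderm. They were chosen by that difference, the number of regions open in the anterior and not the posterior day 2 list, in these same data. Each locus was taken as the GRCh38 gene with 50 kb on either side, and every ATAC-seq peak touching it was kept. Peaks of the 10 lists were merged where they overlapped, and a merged stretch is called a region. The 3 loci held 155 of the 493444 regions of the series, with 67 at PTPN13, 49 at TOP1 and 39 at LRRC74A.

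All libraries came from wild-type H1 cells, an established line of human embryonic stem cells, and each group had 3 biological replicates, 30 libraries in all. The day 0 group (hPSC) was kept in pluripotency medium. Definitive ectoderm (DE) was made in 1 day in CDM2 medium with A8301, Trametinib, C59 and LDN193189. Anterior neural ectoderm (aNE) followed on day 2 in A8301, LDN193189, C59 and Thiazovivin. Posterior neural ectoderm (pNE) was made from the same DE stage with A8301, LDN193189, Thiazovivin, the retinoid TTNPB at 50 nM, FGF2 at 20 ng/mL and XAV939. All values thus come from 1 cell line. Both day 2 populations were carried to day 4 in telencephalon, midbrain or hindbrain medium, giving aNE_T, aNE_M, aNE_H, pNE_T, pNE_M and pNE_H. Cells meant for day 4 were plated at 75000 per square cm on the anterior side and 150000 on the posterior side, so origin and plating density cannot be told apart. The labels of both day 2 groups give 37500 per square cm, so the step from day 2 to day 4 cannot be told apart from plating density either.

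The files hold 1 peak list per group. They carry no score and no value per library, so no difference below has a replicate error or a test. Read depth is unknown, and the lists differ in length. The aNE list is the shortest, with 167792 peaks on the autosomes and sex chromosomes, and the pNE_H list is the longest, with 313095. Of 22 cell type markers, 14 had an annotated start that could be looked up. Of these, 6 had a peak over the start in all 10 lists, as did 67.3% of 15843 protein-coding starts. These 6 were the neural genes SOX2 and SOX1, the anterior genes LHX2 and HESX1, the posterior gene GBX2 and the mesendoderm gene EOMES. Of the pluripotency genes, the start of NANOG was covered in hPSC, DE, aNE and aNE_T, and that of TDGF1 in 8 lists, all but pNE_T and pNE_M. HOXB1, a hindbrain gene, was covered in 7 lists and in none of the aNE-derived day 4 lists. The neural crest gene FOXD3 was covered in 9 lists, all but DE, and the surface ectoderm gene TFAP2A in hPSC, DE, pNE_M and pNE_H. PAX6, a neural factor, was covered in hPSC and aNE, OTX2, an anterior gene, in DE alone, and TBXT, a mesendoderm gene, in no list. Only 1 annotated start per gene was looked up, so a peak over another start of the same gene was not counted. An open start does not measure transcription.

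Accessible chromatin in a gene marks its promoter and, further inside or outside the gene, candidate enhancers and other sites where nucleosomes are displaced. PTPN13 encodes a large cytoplasmic tyrosine phosphatase with a FERM domain and several PDZ domains, through which it binds membrane proteins. TOP1 encodes DNA topoisomerase I, which nicks a single DNA strand to release the supercoils that transcription and replication create. LRRC74A encodes a protein with leucine-rich repeats.

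The promoters are shown because they differ between the loci in the lists. The annotated start of PTPN13 and that of TOP1 lay under a peak in all 10 lists, as did 67.3% of 15843 protein-coding starts. The start of LRRC74A lay under a peak in no list, as did 20.8% of starts. The 250 bases before each start, on the plus strand in all 3 genes, were taken from RefSeq on GRCh38.p14, at chr4:86594065-86594314, chr20:41028572-41028821 and chr14:76826158-76826407. Capitals mark every match, on either strand, to 10 short motifs.

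PTPN13: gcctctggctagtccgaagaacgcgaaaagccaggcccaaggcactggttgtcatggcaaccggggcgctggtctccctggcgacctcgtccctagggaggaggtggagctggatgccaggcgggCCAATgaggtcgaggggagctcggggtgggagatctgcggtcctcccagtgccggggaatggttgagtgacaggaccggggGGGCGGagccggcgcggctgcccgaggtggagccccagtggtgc
TOP1: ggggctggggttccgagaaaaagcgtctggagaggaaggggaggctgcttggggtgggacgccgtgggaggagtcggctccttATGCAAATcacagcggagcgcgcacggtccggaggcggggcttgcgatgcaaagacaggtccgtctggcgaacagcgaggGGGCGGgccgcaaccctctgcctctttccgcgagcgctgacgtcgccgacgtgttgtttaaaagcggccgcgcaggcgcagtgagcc
LRRC74A: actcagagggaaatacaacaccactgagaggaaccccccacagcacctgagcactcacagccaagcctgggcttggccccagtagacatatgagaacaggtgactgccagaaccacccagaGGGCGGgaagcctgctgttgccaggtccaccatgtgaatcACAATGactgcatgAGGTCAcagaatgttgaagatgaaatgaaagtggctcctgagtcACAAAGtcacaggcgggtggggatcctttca

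The 250 bases of LRRC74A held 2 CpG dinucleotides, those of PTPN13 held 18 and those of TOP1 held 28, against a median of 17 over all 15843 promoters. The share of promoters with fewer CpG was 8.16% for LRRC74A, 50.7% for PTPN13 and 79.4% for TOP1. GGGCGG, the SP1 type motif, matched in all 3 and in 56.0% of all promoters. CCAAT, the NFY type, matched in PTPN13 and in 34.5% of promoters. The octamer ATGCAAAT, bound by POU factors, matched in TOP1 and in 1.65% of promoters. LRRC74A had AGGTCA, the nuclear receptor half-site, present in 10.3% of promoters. It also had ACAAAG, a SOX type motif present in 10.9% of promoters. A second SOX type motif, ACAATG, matched too and is present in 6.70%. None of these matches overlapped another. The OTX2 type motif TAATCC had no match in these windows, and 4.84% of promoters hold it. The homeodomain motif TAATTA had none either, against 3.14%. Nor did the NRF1 motif, against 1.48%, or the TATA box letters TATAAA, against 9.23%. A match is a string of letters and not a measured binding site.

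The start of PTPN13 lay in a region of 1697 bp (chr4:86593710-86595406), in which the peaks of single lists covered from 1544 bp in hPSC to 1670 bp in aNE_T. This region also reaches the edge of the MAPK10 annotation at 86594074, a neighbouring gene for a stress-activated kinase. The start of TOP1 lay in a region of 2015 bp (chr20:41027810-41029824), covered for 1438 bp in pNE_T and up to 1934 bp in pNE_H. For LRRC74A the nearest wide region was chr14:76828334-76830469, inside the gene with its midpoint 2.99 kb past the start. It was open in all 10 lists, with 553 bp of peaks in aNE and from 629 to 1661 bp in the others.

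Levels were compared as numbers of open regions. At PTPN13 these were 15 in hPSC, 20 in DE, 16 in pNE and 25 in aNE. On day 4 the anterior-derived lists of PTPN13 had 28 in telencephalon, 14 in midbrain and 15 in hindbrain medium, and the posterior-derived lists had 14, 16 and 28 in the same media. Thus aNE, aNE_T and pNE_H stood above the other 7 lists, which spanned 14 to 20. At TOP1 the early lists had 17 open regions in hPSC, 31 in DE, 12 in pNE and 21 in aNE. In telencephalon, midbrain and hindbrain medium TOP1 had 23, 19 and 14 in the anterior-derived lists and 20, 16 and 22 in the posterior-derived lists. DE was the highest list at TOP1 and pNE the lowest. At LRRC74A there were 23 in hPSC, 26 in DE, 15 in pNE and 24 in aNE. The day 4 lists of LRRC74A, in the same order, had 25, 24 and 19 for the anterior origin and 21, 21 and 25 for the posterior origin. DE was thus the highest and pNE the lowest here too. The loci were chosen for regions open in aNE and closed in pNE, so the low place of pNE is partly fixed by that choice.

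Since the lists differ in length, peaks were also counted per 100000 peaks of the list. PTPN13 had 14.9 in aNE and 14.2 in aNE_T, and between 5.95 in aNE_M and 8.94 in pNE_H in the other 8 lists. On this scale pNE_H no longer stood with aNE_T. TOP1 had 12.5 in DE, 12.5 in aNE and 12.6 in aNE_T, and the others ran from 6.29 in pNE to 9.76 in pNE_T. LRRC74A had 14.9 in aNE, 14.2 in aNE_T, 8.62 in pNE_H and 8.70 in pNE, with the other 6 lists between 11.0 and 12.2. Over the windows of all protein-coding genes the median was 7.15 in aNE and 6.29 in pNE, so a typical gene was also higher in aNE. The anterior day 2 list and its telencephalon descendant were the highest pair at PTPN13 and LRRC74A. At TOP1 they were joined by DE, and those 3 values cannot be ordered without replicates. The aNE list, with 167792 peaks, and the aNE_T list, with 197832, are the shortest, so the scaling raised them most. Before scaling DE had the most peaks at LRRC74A, with 30, against 28 in aNE_T and 25 in aNE. At TOP1 DE had 31, aNE_T 25 and aNE 21. At PTPN13 aNE_T and pNE_H had 28 each and aNE had 25. The choice of the loci favoured high aNE and low pNE values, so the ranks of aNE and pNE are partly fixed by it. The aNE_T list did not enter the choice, but over the genome 84.7% of aNE regions were also open in aNE_T.

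**Figure D1:**
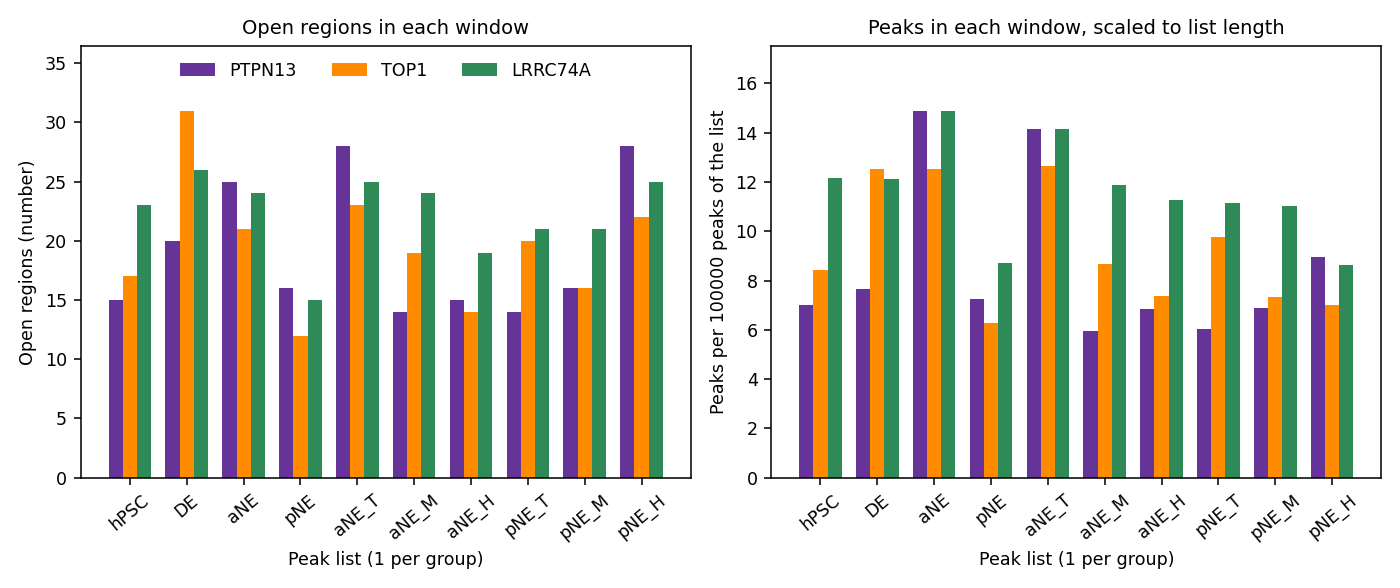
Open regions at each locus (left) and peaks per 100000 peaks of the list (right), by peak list, for PTPN13 (purple), TOP1 (orange) and LRRC74A (green), with 1 list per group and no error bars. On the scaled axis aNE and aNE_T reach 14.9 and 14.2 at PTPN13 and at LRRC74A, and TOP1 is near 12.5 in DE, aNE and aNE_T.

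The day 2 contrast chose these loci, so it is described without a test. A region open in aNE and not in pNE is called aNE-only. Of the 220471 regions open in either list over the genome, 12.4% were aNE-only, 28.5% were pNE-only and 59.1% were shared. PTPN13 had 14 aNE-only, 5 pNE-only and 11 shared regions. TOP1 had 9, 0 and 12, and LRRC74A had 9, 0 and 15. Each gene thus had 9 more aNE-only than pNE-only regions. Among 19502 protein-coding genes with a day 2 region in the same kind of window, 21.7% had more aNE-only and 59.9% more pNE-only regions, and the median difference was -1. Only 6 genes reached a difference of 9: the 3 members, GPC3 with 13, SNRPN with 11 and SNURF with 9. The last 3 are named after their values were seen, and SNRPN and SNURF overlap.

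**Figure D2:**
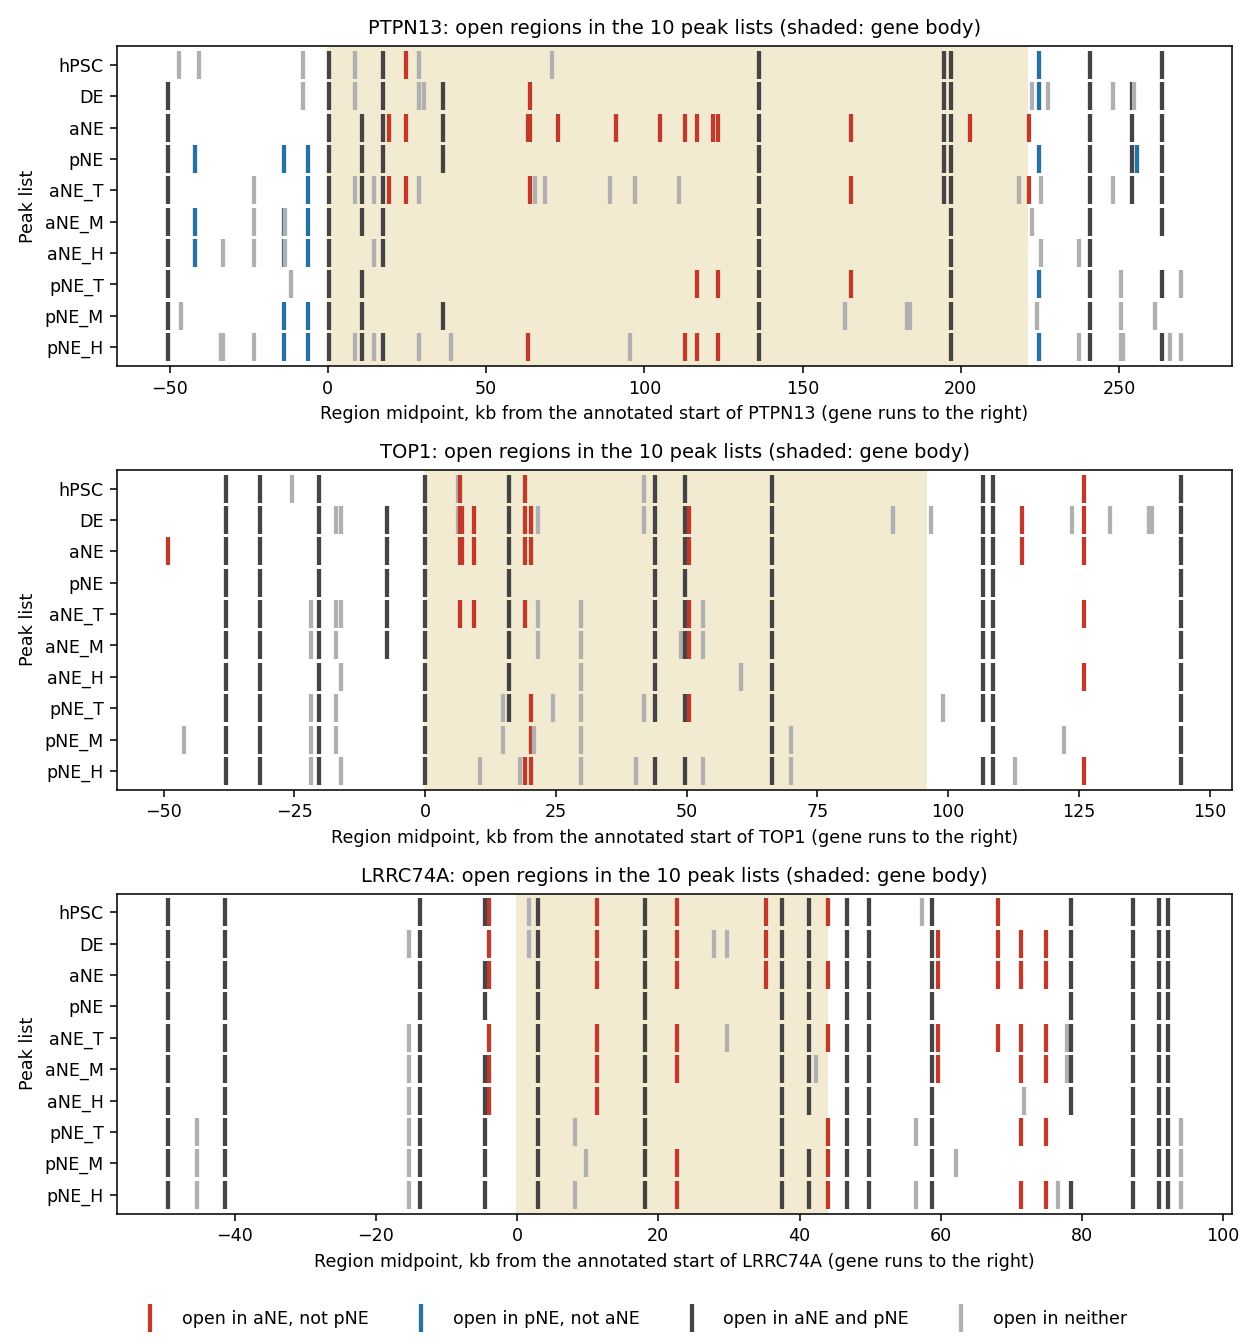
Each tick is an open region at its distance in kb from the gene start (x axis) in one of the 10 peak lists (y axis), with the gene body shaded. Red ticks are aNE-only, blue pNE-only, dark grey open in both day 2 lists and light grey in neither. Of the 14 red PTPN13 regions 13 lie in the gene body, as do 36 of all 67 regions there. The pNE rows of TOP1 and LRRC74A hold dark grey ticks alone.

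PTPN13 carried most of its aNE-only regions inside the gene. Of 14, 13 lay in the gene body (chr4:86594315-86815161, 220.847 kb), and the other was 0.844 kb past its end. The gene body held 36 of the 67 regions of the window and made up 220.847 of its 320.847 kb. None of the 5 pNE-only regions was in the gene body. The pNE-only regions chr4:86552180-86552414, chr4:86580283-86580593 and chr4:86587840-86588082 lay before the gene and inside MAPK10. The remaining pNE-only regions, chr4:86818901-86819408 and chr4:86849874-86850075, lay after it, near SLC10A6, a steroid sulfate transporter gene. Exon positions were not used here, so exonic and intronic sites were not separated.

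Peak density shows how local this was. The PTPN13 gene body held 20 peaks in aNE, 19 in aNE_T and 15 in pNE_H. The other 7 lists held between 5 peaks, in aNE_M and aNE_H, and 10 peaks, in DE, with 7 in pNE. The aNE_T value was not used to choose the locus, and it stood at 8.60 peaks per 100 kb against 2.26 in both aNE_M and aNE_H. In the 500 kb before the window the same 3 lists had 10.2, 10.6 and 9.80 peaks per 100 kb, and in the 500 kb after it 10.6, 12.0 and 11.2. The difference between the telencephalon list and its sister lists was thus seen in the gene body and not in these flanks.

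**Figure D3:**
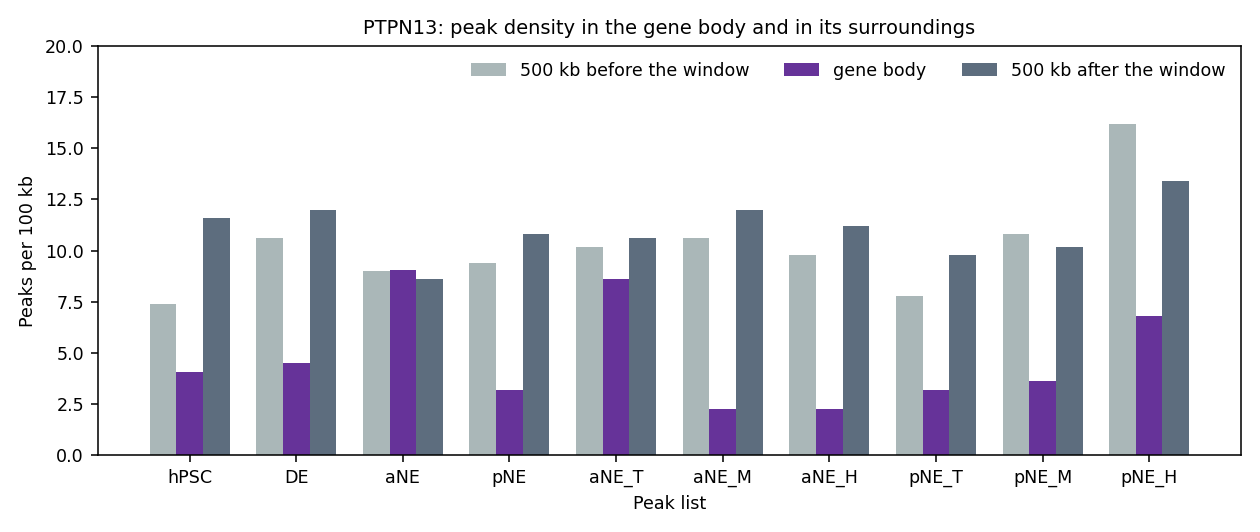
Peaks per 100 kb (y axis) in the PTPN13 gene body (purple) and in the 500 kb before and after its window (greys), for the 10 peak lists (x axis). The gene body reaches 9.06 in aNE and 8.60 in aNE_T, while aNE_M and aNE_H have 2.26; the flanks of these 4 lists lie between 8.60 and 12.0.

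Although aNE and aNE_T were both dense at PTPN13, they shared only part of their positions. In the gene body 20 regions were open in aNE and 19 in aNE_T, and 10 were open in both. All 5 gene body regions of aNE_M were open in aNE and aNE_T, and all 5 of aNE_H were open in aNE_T. Over the whole PTPN13 window 15 of 25 aNE regions (60.0%) stayed open in aNE_T, against 84.7% over the genome. The choice of the loci bears on this share, since 14 of the 25 were aNE-only and such regions stayed open less often over the genome (49.2%). TOP1 kept 17 of 21 (81.0%) and LRRC74A kept 22 of 24 (91.7%). In midbrain medium PTPN13 kept 8 of 25 (32.0%), TOP1 13 of 21 (61.9%) and LRRC74A 21 of 24 (87.5%), against 81.6%. In hindbrain medium they kept 6 (24.0%), 11 (52.4%) and 17 (70.8%), against 75.2%. Over the genome aNE-only regions stayed open less often here too, with 32.1% in aNE_M and 20.1% in aNE_H. They made up 14 of 25 aNE regions at PTPN13, 9 of 21 at TOP1 and 9 of 24 at LRRC74A, which the choice of the loci favoured. The genome shares for all aNE regions are thus not a like background for these loci. The order of the 3 loci was the same in the 3 media, with PTPN13 losing the largest share. It is also the order of their aNE-only part, and all 3 media start from the same aNE regions, so it is partly fixed by the choice. Of the 28 regions open at PTPN13 in aNE_T, 10 were also open in aNE_H (35.7%), against 71.7% over the genome. Regions found in aNE_T and in no other list numbered 6 of 67 at PTPN13 (8.96%), against 1.28% over the genome, and 0 at TOP1 and LRRC74A. The peaks of these 6 were from 122 to 186 bp wide, and most were 122 bp, the narrowest width of the aNE_T list. Regions found in pNE_M alone numbered 6 at PTPN13, 3 at TOP1 and 2 at LRRC74A, against 3.62%. Regions found in aNE alone numbered 5 at PTPN13 (7.46%), 1 at TOP1 and 0 at LRRC74A, against 0.512%. A region open in aNE alone is aNE-only by definition, so the choice of the loci raised this count.

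Part of these PTPN13 peaks were close to the narrowest of their lists. In the gene body 5 of 20 aNE peaks and 5 of 19 aNE_T peaks were within 10 bp of the narrowest width in their list, against 7.1% and 7.12% of the full lists. In DE it was 2 of 10, against 8.9%, and in pNE 0 of 7, against 7.99%. The median width of aNE peaks in aNE-only regions was 152 bp at PTPN13, 171 bp at TOP1 and 183 bp at LRRC74A, against 186 bp over the genome. Shared regions had wider aNE peaks, with medians of 338, 286 and 314 bp and 354 bp over the genome. The part of peak strength or read depth in these counts was not tested.

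Each aNE-only region was then followed into the telencephalon list, a measure that did not enter the choice of loci. Over the genome 49.2% of 27338 aNE-only regions were open in aNE_T. At PTPN13 this held for 5 of 14 (35.7%, exact 95% interval 12.8% to 64.9%). At TOP1 it held for 5 of 9 (55.6%, 21.2% to 86.3%) and at LRRC74A for 8 of 9 (88.9%, 51.8% to 99.7%). Together 18 of 32 continued (56.2%, 37.7% to 73.6%), a share near the background. These Clopper-Pearson intervals, here and below, cover the counting of regions and no library error. They take the regions of a locus as independent, which was not tested. The PTPN13 and TOP1 intervals held the genome value, and that of LRRC74A lay above it. With lists of one length, made of the widest 167792 peaks of each, the LRRC74A share was 50.0% and the TOP1 share 27.3%. With openness requiring 50% coverage of the region, the LRRC74A share was 33.3%.

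The other aNE-derived lists held fewer of these regions. In aNE_M there were 0 of 14 at PTPN13, which allows up to 23.2%, 1 of 9 at TOP1 and 6 of 9 at LRRC74A, against 32.1% over the genome. In aNE_H there were 0, 1 and 2, against 20.1%. In pNE_T there were 3 at PTPN13, 2 at TOP1 and 3 at LRRC74A, against 26.0%. In pNE_M there were 0, 1 and 2, against 19.3%. In pNE_H there were 4, 3 and 4, against 34.2%. At least 1 posterior-derived list was open at 13 of the 32 regions, against 47.9%. All 18 regions of the 3 loci that were open in any aNE-derived list were open in aNE_T. Over the genome 16781 aNE-only regions were open in any aNE-derived list, and 13445 of these were open in aNE_T.

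The loci also differed in what came before day 2. DE had opened 70.8% of aNE-only regions over the genome. It had opened 8 of 9 at TOP1 (88.9%, 51.8% to 99.7%), 8 of 9 at LRRC74A (the same interval) and 1 of 14 at PTPN13 (7.14%, 0.181% to 33.9%). In hPSC the counts were 3 of 9, 6 of 9 and 1 of 14, against 45.0%. The intervals of TOP1 and LRRC74A held the genome share, and that of PTPN13 lay below it. At PTPN13 12 of the 14 were open in neither earlier list. Over the genome 77.0% were open in hPSC or DE. Of the 17 aNE-only regions of the 3 loci open in DE, 13 continued in aNE_T (76.5%), against 56.4% over the genome. By locus this was 7 of 8 at LRRC74A (87.5%), 5 of 8 at TOP1 (62.5%) and 1 of 1 at PTPN13. Of the 15 closed in DE, 5 continued (33.3%), against 31.7%, and 13 of these 15 belonged to PTPN13. With lists of one length the DE shares were 63.6% at TOP1, 30.0% at LRRC74A and 12.5% at PTPN13, and with 50% coverage LRRC74A had 33.3%.

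**Figure D4:**
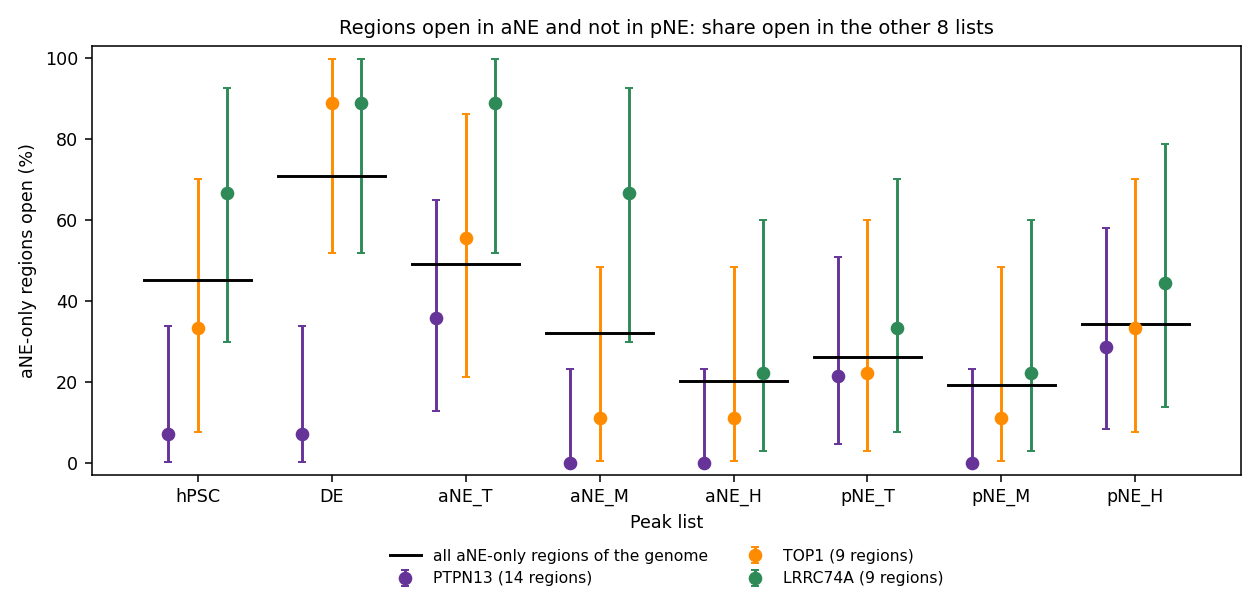
Share of the aNE-only regions (y axis, %) open in each of the other 8 peak lists (x axis) at PTPN13 (14 regions), TOP1 (9) and LRRC74A (9), with exact 95% binomial intervals of the region counts; black lines give all 27338 aNE-only regions. PTPN13 lies at 7.14% in DE where the line is at 70.8%, and LRRC74A at 88.9% in aNE_T where the line is at 49.2%.

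Among the 5 PTPN13 regions that continued in aNE_T, chr4:86613330-86613645 was open in no other list, with peaks of 271 bp in aNE and 275 bp in aNE_T. The same held for chr4:86815926-86816085, with 160 and 122 bp, just past the gene end. The region chr4:86657989-86658240 was open in DE as well, with 120 bp there and 242 and 226 bp in aNE and aNE_T. The region chr4:86618945-86619199 was also open in hPSC, where its peak of 239 bp was wider than the 125 bp of aNE. At chr4:86759406-86759657 pNE_T joined aNE and aNE_T. These regions spanned the gene from 19.2 kb past its start to its end.

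The other 9 PTPN13 regions were absent from every aNE-derived list. Of these, chr4:86666826-86666950, chr4:86685298-86685486, chr4:86699150-86699335, chr4:86715881-86716018 and chr4:86797238-86797362 were open in aNE alone. Their peaks were between 125 and 189 bp wide. With 1 such region at TOP1, 6 of 32 aNE-only regions (18.8%) were open in no other list, against 9.24% over the genome. The regions chr4:86657544-86657700 and chr4:86707030-86707193 were shared with pNE_H. The neighbours chr4:86710925-86711222 and chr4:86717166-86718194 were shared with pNE_T and pNE_H. The last was much wider in the posterior-derived lists, with 177 bp in aNE, 921 bp in pNE_T and 748 bp in pNE_H. Absence from pNE on day 2 therefore did not mean absence from its day 4 descendants.

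At TOP1 (chr20:41028822-41124487) 6 of the 9 aNE-only regions lay in the gene body, which held 26 of the 49 regions of the window. The continuing ones were chr20:41035304-41035672, chr20:41038031-41038283, chr20:41047715-41048151, chr20:41079060-41079379 and chr20:41154369-41155066, all open in DE. The last lay inside PLCG1, the neighbouring phospholipase C gamma gene. At chr20:41079060-41079379 the peak measured 228 bp in DE, 193 bp in aNE and 272 bp in aNE_T, and aNE_M and pNE_T were open too. The regions chr20:41035827-41036021 and, inside PLCG1, chr20:41142846-41143102 were open in DE and aNE and then in no day 4 list. The region chr20:41048733-41049279 skipped the aNE-derived lists and was open in all 3 posterior-derived ones, with 547 bp in pNE_M. The region chr20:40979601-40979759 was open in aNE alone, with its midpoint at -49.1 kb from the gene start.

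At TOP1 the early steps were as follows. Going from hPSC to DE, TOP1 gained 15 regions and kept 16 of its 17 (94.1%), against 78.2% kept over the genome. All 11 gene body regions of aNE had been open in DE. From DE to pNE 0 regions were gained and 19 were lost, leaving 12 of 31 (38.7%), against 62.4% over the genome. Because TOP1 was chosen for regions closed in pNE, its losses and gains at this step are partly fixed by the choice. From DE to aNE 1 was gained and 11 were lost, leaving 20 of 31 (64.5%), against 60.9%. Of the 12 pNE regions, 11 stayed open in pNE_T, 7 in pNE_M and 10 in pNE_H, against 70.5%, 71.9% and 85.9%. At PTPN13 the same counts were 8, 9 and 11 of 16, and at LRRC74A 13, 14 and 15 of 15. TOP1 and LRRC74A had 0 pNE-only regions, which the choice of the loci favoured, so all their pNE regions were shared with aNE. Over the genome pNE-only regions stayed open less often, with 41.5% in pNE_T, 48.0% in pNE_M and 72.9% in pNE_H. The genome shares for all pNE regions are thus not a like background for these 2 loci. The number of regions open in DE alone was 6 of 49 (12.2%), against 5.46%.

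At LRRC74A (chr14:76826408-76870304) the aNE-only regions lay on both sides of the start and beyond the gene end. The regions chr14:76822326-76822656, with its midpoint at -3.92 kb from the start, and chr14:76837597-76837847 inside the gene had 1 pattern. Both were open in hPSC, DE, aNE and all 3 aNE-derived lists, and closed in pNE and all its descendants. The first measured 156 bp in hPSC, 162 in DE and 206 in aNE, and then 145, 158 and 255 bp in telencephalon, midbrain and hindbrain medium. The second measured 131, 232, 202, 187, 145 and 186 bp in the same order. Only 208 of 493444 regions (0.0422%) had this pattern, and neither PTPN13 nor TOP1 had any. Since pNE is part of the pattern, the choice of the locus made it more likely.

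The other LRRC74A regions were less tied to origin. Open in aNE_M but not aNE_H were chr14:76848897-76849208, chr14:76885693-76886241, chr14:76897564-76897874 and chr14:76901152-76901532. Of these chr14:76885693-76886241 was closed in every posterior-derived list, and its peak measured 549 bp in DE, 141 bp in aNE and 339 bp in aNE_T. The region chr14:76894324-76894655 was open in aNE_T and no other day 4 list. The region chr14:76870245-76870580, at the gene end, was open in aNE_T and all 3 posterior-derived lists, and the peak of 336 bp in aNE was its widest. The region chr14:76861354-76861882 was the one that did not continue, with 256 bp in hPSC, 529 bp in DE and 183 bp in aNE.

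Across all 10 lists the loci differed in how much was constant. Regions open in every list numbered 12 of 39 at LRRC74A (30.8%), 7 of 49 at TOP1 (14.3%) and 4 of 67 at PTPN13 (5.97%), against 16.5% over the genome. Regions seen in 1 list numbered 7 (17.9%), 19 (38.8%) and 30 (44.8%), against 33.5%. Regions open on day 4 alone numbered 26 at PTPN13 (38.8%), 16 at TOP1 (32.7%) and 10 at LRRC74A (25.6%), against 35.0%. Regions open in hPSC or DE and in neither day 2 list numbered 11, 12 and 5, against 20.4%, and TOP1 had the highest share at 24.5%. Day 4 origin was examined with regions open in all 3 lists of an origin and none of the other. For the anterior origin there were 2 at LRRC74A and 0 at the other loci, against 0.633% over the genome. These are chr14:76822326-76822656 and chr14:76837597-76837847, described above. Both are aNE-only, so the choice of the locus favoured them. For the posterior origin there were 2 at LRRC74A, 1 at TOP1 and 1 at PTPN13, against 2.33%. The TOP1 region is chr20:41048733-41049279, described above. The rest of the posterior set was chr4:86844528-86845288 inside SLC10A6, chr14:76780868-76781269 in VASH1, and chr14:76919972-76920877 outside any gene. Each of these was closed on days 0 to 2, and the last measured 845, 856 and 906 bp in pNE_T, pNE_M and pNE_H.

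Neighbouring genes shared part of these windows. In their own windows of the same kind MAPK10 had 16 aNE-only and 18 pNE-only regions, and SLC10A6 had 2 and 3. PLCG1 had 3 and 0, and LOC124904903, a short gene before it, had 2 and 0. VASH1, which encodes a tubulin-modifying enzyme, had 2 and 2, and ANGEL1 had 4 and 1. The surplus of aNE-only regions at PTPN13 was thus not matched in the windows of MAPK10 and SLC10A6.

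Relatives of the members were counted in the same way. Of 22 relatives, 4 had more aNE-only and 17 more pNE-only regions, with 1 equal, beside 21.7% and 59.9% of all genes. Among 16 other non-receptor tyrosine phosphatases the median difference was -3. PTPN11, the phosphatase SHP-2 of RAS signalling, had 3 aNE-only and 1 pNE-only regions, and PTPN23 had 2 and 1. PTPN4, which like PTPN13 joins a FERM domain to a PDZ domain, had 5 and 12. PTPN14 and PTPN21, which carry a FERM domain, had 4 and 14, and 0 and 4. Among 5 other topoisomerases the median was -1, with 4 and 2 at TOP3B and 1 and 6 at TOP2B, the type II enzyme of non-dividing cells. LRRC74B, the paralogue of LRRC74A, had 0 and 2.

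Genes with the most similar profile over the 10 lists were taken by Pearson correlation of peaks per 100000, among 14699 genes (14700 for LRRC74A) with at least 20 regions. This describes likeness only, since all points share the same lists. For PTPN13 the closest were DDHD1 (r = 0.937), IGFBP6 (0.934) and SLC35G1 (0.915). For TOP1 they included RNF8 (0.9501) and CD74 (0.949). For LRRC74A they were NKX1-2 (0.983), ZMIZ1 (0.951) and LEPROTL1 (0.934). The members had r = 0.835 between TOP1 and LRRC74A, 0.657 between PTPN13 and TOP1, and 0.655 between PTPN13 and LRRC74A. All 3 were chosen for high aNE and low pNE, which are among the 10 points, so these r values are partly fixed by the choice. Scaling by list length also gives all genes part of a common shape. Before scaling, IGFBP6 had 17 peaks in both aNE and pNE.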

How the data were processed

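The deposited files give peak start and end positions, another kind of value than counts or signal, with no score, fold or p-value column. Per the submitters' processing notes the build is hg38, and FastQC, Bowtie2, MACS2, bedtools, featureCounts, edgeR and deepTools are named without role or version. The peak threshold and the way replicates were joined are not given in the sources used here, and neither was varied. List names match the group names in the labels.

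On the autosomes and sex chromosomes, peaks sharing 1 bp or more were merged into regions, and any peak of a list in a region made it open there. A region crossing the edge of a window counted with all its peaks. Gene positions came from RefSeq GRCh38.p14. The members and gene lists were chosen with earlier results of these data known. Named were the members, the protein-coding genes in their windows, 22 relatives, the 3 genes with the most similar profile per member (1 is not reported here), and every aNE-only region. Alternatives were 50% coverage, 0 and 100 kb flanks, lists of one length by width, 500 bp windows, regions over 1 kb from gene ends, and nearest-gene assignment. The code was tested on simulated lists. Python 3.11.15, numpy 2.4.6, pandas 2.3.3, scipy 1.17.1 and matplotlib 3.10.9 were used.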

Additional observations from a re-analysis of the deposited data

Results flagged for a closer look

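From telencephalon to hindbrain medium the number of open regions moved in opposite directions in the 2 origins at all 3 loci; this difference was not tested, since each group has 1 list. At PTPN13 the change was -13 in the aNE-derived and 14 in the pNE-derived lists. At TOP1 it was -9 and 2. At LRRC74A it was -6 and 4. Per 100000 peaks of the list, the posterior value rose at PTPN13, from 6.04 in pNE_T to 8.94 in pNE_H. On this scale it fell at TOP1, from 9.76 to 7.03, and at LRRC74A, from 11.2 to 8.62. The anterior value fell at all 3 loci, so the scaled directions were opposite at PTPN13 alone. Over the genome both origins gained, with 4174 more open regions in aNE_H than in aNE_T and 96826 more in pNE_H than in pNE_T. With every list reduced to its widest 167792 peaks, the posterior changes were 0 at PTPN13, 1 at TOP1 and -3 at LRRC74A, and the anterior changes were -8, -9 and -2.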

How the results depend on the processing

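Under the 7 alternatives, 100 of 147 values stayed within 1.5 times the count, or within the interval of the share, 45 moved further and 2 reversed. The surplus of aNE-only regions, by which the loci were chosen, kept its direction at each gene under these 7, but it shrank with 50% coverage. No paired analysis was possible because the lists hold no value per library, and leaving out replicates was not run for the same reason.

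With peaks covering 50% of a region, there were 8 aNE-only against 4 pNE-only regions at TOP1 and 6 against 4 at LRRC74A; the LRRC74A shares open in aNE_T and DE were both 33.3%. The change from telencephalon to hindbrain medium was then 4 at TOP1 (posterior origin), and -1 (anterior) and 9 (posterior) at LRRC74A. In the gene body alone, regions numbered 36 at PTPN13, 26 at TOP1 and 14 at LRRC74A, with 0 pNE-only at PTPN13 and 4 aNE-only at LRRC74A; the TOP1 share in DE was 100.0%. The medium changes there were 7 at PTPN13 and 1 at TOP1 (posterior), and -3 and 2 at LRRC74A. With 100 kb flanks, LRRC74A had 69 regions and 4 pNE-only, TOP1 had 2 pNE-only, and the medium changes were 8 at TOP1 (posterior) and -3 and 8 at LRRC74A. With lists of one length, PTPN13 had 3 pNE-only regions and medium changes of -8 and 0, TOP1 had 1 (posterior), and LRRC74A had -2 and a reversed -3; the LRRC74A shares were 50.0% in aNE_T and 30.0% in DE. With 500 bp windows TOP1 had 1 pNE-only region. Over 1 kb from gene ends the DE shares were 100.0% at TOP1 and LRRC74A, and the TOP1 posterior change was 1. With nearest-gene assignment, regions numbered 40 at PTPN13, 18 at TOP1 and 18 at LRRC74A, aNE-only regions 5 at TOP1 and 5 at LRRC74A, and pNE-only 1 at PTPN13. The TOP1 share in DE was 100.0%, and the medium changes were 7 at PTPN13 (posterior), -4 and a reversed -1 at TOP1, and -2 and 2 at LRRC74A. Narrower windows, stricter rules and shorter lists hold fewer regions by construction; the cause of the 2 reversals was not tested. Peak lists without scores limit all values to presence or absence.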
